A study of Mus musculus with 21 samples.

Results

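Splenic CD4+ T cells sorted 24 h after mice received 80 μg of [4Y] MBP peptide were compared with those sorted 12 h after the same dose, across all genes measured. Every library that the labels give to these groups was used, 3 at each time, which is 6 of the 21 libraries of the series, and no measured value chose them. All groups came from Tg4 Tiger Nr4a3-Tocky mice, in which a transgenic T cell receptor (TCR) recognizes the myelin basic protein (MBP) peptide, Tiger is an Il10-GFP reporter, and Nr4a3-Tocky is a transgene that makes a Fluorescent Timer protein under the control of Nr4a3. The peptide was injected s.c. with no adjuvant, and each dose (0.8 μg or 80 μg) was followed for 4 h, 12 h or 24 h beside an untreated control group, with 3 mice in each group. Timer protein is blue when newly made and matures to red, and per the study's methods the 12 h cells were sorted as Blue+Red+ and the 24 h cells as Blue-Red+. Time and sorting gate therefore changed together, and their parts in any difference below cannot be told apart. Mice of both sexes were used, their ages are not given in the sources used here, and a single transgenic TCR and tolerogenic peptide limit the cells as a model of a mixed T cell response.

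Binding of peptide and MHC by the TCR sends calcium, kinase and NF-κB signals to the nucleus, where immediate early genes such as those of the Egr and Nr4a families are switched on, followed by cytokine genes and their receptors. The activated cell then grows, by making ribosomes, nucleotides and chaperones under the control of factors such as Myc, before it copies its DNA and divides. Resting T cells carry another set of transcripts, for lymph node homing receptors, IL-7 receptor and factors that keep them out of the cell cycle, and this set is lost on activation.

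RNA was measured by QuantSeq 3′ mRNA sequencing, which counts reads at the 3′ ends of transcripts. The 6 libraries held 3443310 to 6244279 counts (2352800 to 6244279 over the series), and a count of 0 in a library was read against a floor of 3 counts. Counts below are normalised with DESeq2 size factors, and levels are not compared between genes. The most counted gene, Gm42418, took 19.9 to 24.5% of the counts at 12 h and 26.1 to 27.8% at 24 h, and mitochondrially encoded genes took 5.00 to 5.54% and 8.22 to 9.01%. CD4 T cell markers were present in all 6 libraries, at a summed 2281 to 2432 counts scaled to a library of 1e6 (CPM) at 12 h and 4183 to 4479 CPM at 24 h. Of B cell markers, Cd79a was at 0 to 0.290 CPM at 12 h and at 0 in every 24 h library, but Ighm, the immunoglobulin heavy chain constant gene (named after its values were seen), was at 36.0 to 64.1 CPM at 12 h and 368 to 386 CPM at 24 h, and the summed B cell list moved from 57.2 to 151 CPM to 398 to 457 CPM. Natural killer (NK) cell markers summed to 0.581 to 2.02 CPM and 8.95 to 9.93 CPM, a sum that at 24 h was mostly Klrd1 (7.32 to 9.93 CPM), with Ncr1 and Klre1 at 0 in every 24 h library. Globin and other erythroid transcripts summed to 44.7 to 213 CPM and 19.4 to 71.3 CPM. Xist was at 678 and 686 CPM in 2 of 3 libraries at 12 h and at 1003 CPM in 1 of 3 at 24 h, against at most 2.17 CPM in the others, so that the groups held both sexes in different numbers. The parts of these markers in the results were not tested.

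A gene was called when its DESeq2 adjusted p was under 0.05 and its shrunken log2 fold change above 1 in either direction. Of 13221 genes tested, 2213 (16.7%) were called higher at 24 h than at 12 h and 1388 (10.5%) lower. Large changes lay mostly on the higher side: by shrunken fold change, 1075 genes rose and 386 fell by over 4-fold, 437 rose and 79 fell by over 8-fold, and 43 rose and 5 fell by over 32-fold. The 3 libraries of the groups did not overlap for 2157 of the genes called higher and 1342 of those called lower, against 6989 (52.86%) of all genes tested. The median change over all genes was 0.12 on the log2 scale, and scaling by library totals in place of size factors shifted it by -0.19, which gave 1844 genes higher and 1857 lower (49.82% of calls higher against 61.46%). Long noncoding genes and unclassified transcripts gave 238 higher and 71 lower of 1402 tested, while of 93 small nucleolar RNA genes 2 were higher and 15 lower. In bulk RNA, fewer cells with a transcript and less of it per cell cannot be told apart. The plot of change against level shows these calls.

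**Figure D1:**
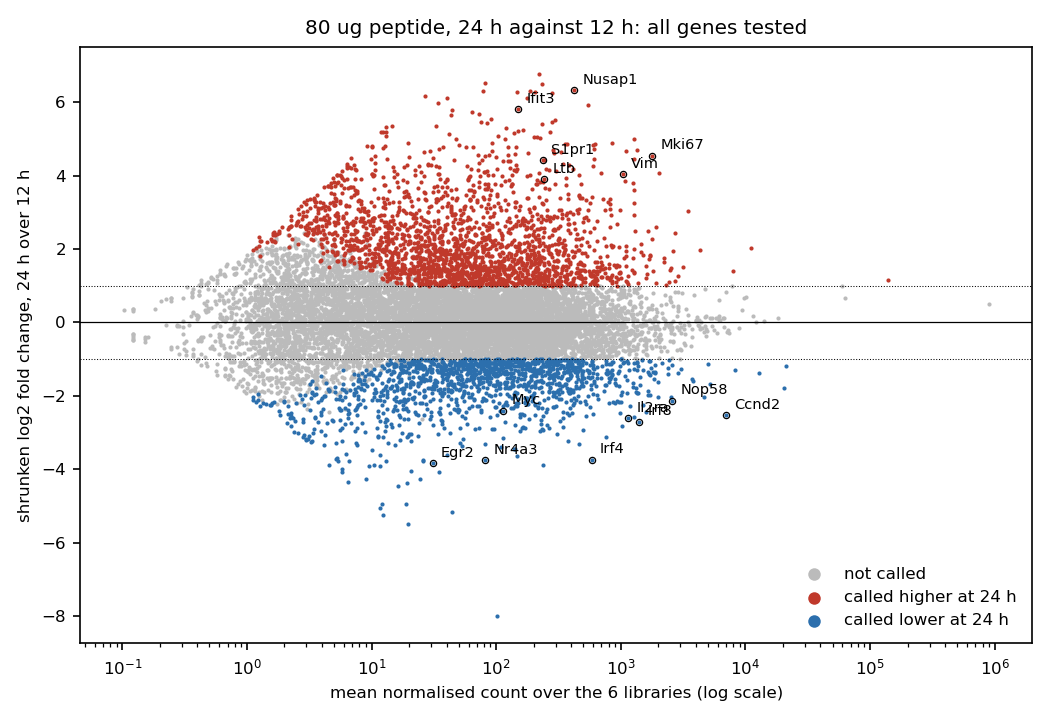
Each point is a gene, with its mean normalised count over the 6 libraries (log scale) on the horizontal axis and its shrunken log2 fold change, 24 h over 12 h, on the vertical axis; red, the 2213 genes called higher, blue, the 1388 called lower, grey, genes not called. Nusap1 lies above 6 on the log2 scale and Irf4, Nr4a3 and Egr2 near -4, while the lowest point is Crabp2 at -8.01; genes with no counts in one group are drawn at fitted values, which are not bounds.

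Genes of mitosis and the kinetochore made up the list with the greatest share of calls. Of 80 members tested, 77 were called higher at 24 h, 0 lower and 3 not called, with a median log2 change of 2.90. Over all genes tested 16.7% were called higher and 10.5% lower, with a median of 0.12. Ccnb2, a B-type cyclin that activates Cdk1 at the entry to mitosis, was at 4.57, 3.67 and 5.83 normalised counts at 12 h and 375, 438 and 406 at 24 h, a 77.4-fold change by the shrunken fit (log2 change 6.27, SE 0.41, adjusted p = 3.16e-46). All 24 h values stood above all 12 h values, and the 12 h values were close to the control mean of 4.71. Nusap1, a microtubule binding protein of the spindle whose exons overlap Oip5 on the opposite strand, was at 17.4, 8.07 and 0 at 12 h and 719.9, 930.2 and 865 at 24 h (log2 change 6.33). Kif2c, a kinesin that takes apart microtubules at kinetochores, was at 4.57, 0.734 and 1.94 at 12 h and 129, 151 and 149.8 at 24 h (log2 change 5.68). Mki67, the gene of the proliferation antigen Ki-67 (named after its values were seen), was at 134, 147 and 85.5 at 12 h and 3544, 3669 and 3115 at 24 h (log2 change 4.54). The groups did not overlap for any of these genes. Cdk1 itself was already above control at 12 h, at 85.0, 81.4 and 113 at 12 h and 352, 362 and 479.5 at 24 h against a control mean of 5.18, and rose by 2.08 on the log2 scale. Together, transcripts of this list took 0.202 to 0.219% of a library's counts at 12 h and 1.13 to 1.27% at 24 h.

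Promoters of this list are shown because members moved together and share short elements that the list was not chosen by. In windows from 250 bases before to 50 after the RefSeq start (GRCm38.p6), the cell cycle homology region letters of late cell cycle genes (CHR, searched as TTTGAA and TTCGAA on both strands) were found in 53 of 74 windows (71.6%) from 68 of the 80 members matched by symbol, against 14.3% of 11515 windows of genes tested and 19.2% of all 32851 windows. The CCAAT box (CCAAT on both strands) was found in 56 of those 74 windows (75.7%), against 37.9% of windows of genes tested and 37.4% of all windows. Ccnb2 (chr9:70421505-70421804, minus strand) held CHR letters at -167 and +4 from the start and CCAAT boxes at -87, -54 and -21. Cdk1 (chr10:69352863-69353162, minus strand) held CHR letters at -71 and -15 and CCAAT boxes at -208, -80 and -48. Capitals mark these matches, written 5′ to 3′ on the gene's strand, and a match describes letters and is not evidence of binding.
Ccnb2: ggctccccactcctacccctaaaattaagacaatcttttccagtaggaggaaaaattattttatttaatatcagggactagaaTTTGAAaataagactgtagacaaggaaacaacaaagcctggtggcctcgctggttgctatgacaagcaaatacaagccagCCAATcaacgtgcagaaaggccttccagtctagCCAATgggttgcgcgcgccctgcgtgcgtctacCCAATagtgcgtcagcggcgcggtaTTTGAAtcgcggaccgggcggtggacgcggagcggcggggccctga
Cdk1: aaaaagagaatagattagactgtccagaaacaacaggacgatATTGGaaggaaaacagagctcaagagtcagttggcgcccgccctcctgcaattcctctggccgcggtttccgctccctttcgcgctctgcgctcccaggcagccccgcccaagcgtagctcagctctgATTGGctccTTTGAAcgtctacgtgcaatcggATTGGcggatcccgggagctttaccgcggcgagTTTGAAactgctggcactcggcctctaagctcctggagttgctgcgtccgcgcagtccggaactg

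Genes of DNA replication behaved otherwise. Of 66 members tested, 16 were called higher, 1 lower and 49 not called, against 16.7% and 10.5% of all genes tested, with a median log2 change of 0.61. With library totals as scale 11 were called higher, which is near the share over all genes on that scale (1844 of 13519 tested). At 24 h, 61 of the 66 were called higher than in control, where 12.3% of genes were. Mcm3, a subunit of the MCM replicative helicase, was at 2246, 2575 and 2220 normalised counts at 12 h and 2255, 2236 and 2191 at 24 h, with overlapping groups and no call (log2 change -0.08, SE 0.14, adjusted p = 0.69), against a control mean of 172. Mcm2, another subunit, was at 1010, 877 and 1118 at 12 h and 712, 707 and 805 at 24 h, lower at 24 h with no overlap but under the fold needed for a call (log2 change -0.43, SE 0.14, adjusted p = 0.00497). Members that rose included Rrm2, a subunit of the ribonucleotide reductase that makes deoxynucleotides, at 141, 79.2 and 126 at 12 h and 966, 837 and 1112 at 24 h (log2 change 3.06). Tk1, thymidine kinase, whose exons overlap Afmid on the opposite strand, was at 48.4, 55.8 and 58.3 at 12 h and 394, 511 and 479 at 24 h (log2 change 3.07). The 1 member called lower was Orc2, a subunit of the origin recognition complex, at 495, 559 and 534 at 12 h and 197, 204 and 218 at 24 h (log2 change -1.35). Rrm2 and Tk1 were thus above every 12 h value in each 24 h library, and Orc2 below.

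Letters of the E2F site, the element through which E2F factors act on S phase genes (TTTCCCGC, TTTCGCGC, TTTGGCGC or TTTGCCGC on either strand), were found in 20 of 65 promoter windows of the DNA replication list (30.8%, from 52 of 66 members matched), against 4.17% of windows of genes tested and 2.26% of all windows. In the mitosis list they were found in 8.11% of windows. Mcm3, shown as a member already high at 12 h (chr1:20820263-20820562, minus strand), held 2 such matches, in capitals, at +19 and +38 from its start.
Mcm3: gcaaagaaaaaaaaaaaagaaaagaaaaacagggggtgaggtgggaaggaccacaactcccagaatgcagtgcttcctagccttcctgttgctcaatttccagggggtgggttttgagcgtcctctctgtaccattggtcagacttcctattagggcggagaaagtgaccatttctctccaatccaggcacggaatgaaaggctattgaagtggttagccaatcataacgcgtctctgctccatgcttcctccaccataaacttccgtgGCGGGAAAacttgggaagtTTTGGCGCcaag

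Replication-dependent histone genes, whose transcripts accumulate in S phase, had 51 members tested (63 in the list). Of these, 43 were called higher and 0 lower, against 16.7% and 10.5% of all genes tested. Histone members had a median log2 change of 3.53, or 2.93 with members absent at one time set to their bound. Their summed level was 68.9 to 90.6 CPM at 12 h and 1511 to 1734 CPM at 24 h. Hist1h1b, a linker histone, was at 3.65, 11.7 and 3.89 normalised counts at 12 h and 426, 638 and 591 at 24 h (log2 change 6.24, SE 0.35, adjusted p = 2.72e-65). Hist1h1d, another linker histone, was at 0, 2.20 and 0.972 at 12 h and 152, 169 and 168 at 24 h (log2 change 6.51). Hist1h1a had 2 counts in all at 12 h and 312 at 24 h, a ratio of 139.7 with a 95% counting interval of 38.3 to 1158. The 3 libraries of the groups did not overlap for these genes. Near-identical histone copies can share or lose reads, and most such transcripts lack a poly(A) tail, on which this assay is primed, so these levels are uncertain in amount.

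Of 29 regulators of G1 tested, 14 were called higher and 5 lower, against 16.7% and 10.5% of all genes tested. Ccnd2, the D-type cyclin of activated lymphocytes, fell from 10580, 11840 and 13130 to 2146, 1953 and 2037 normalised counts (log2 change -2.53, SE 0.11, adjusted p = 3.2e-117), below its control mean of 4675. Cdk6, a kinase partner of D-type cyclins, fell from 1477, 1532 and 1432 to 306, 262 and 393 (log2 change -2.20). Exons of both genes overlap noncoding genes on the opposite strand. On the higher side, E2f8, a repressor of the E2F family, was at 21.9, 9.54 and 13.6 at 12 h and 259, 291 and 292 at 24 h (log2 change 4.17). Cdkn2c, the inhibitor p18 of Cdk4 and Cdk6, was at 7.31, 2.94 and 10.7 at 12 h and 85.5, 132 and 127 at 24 h (log2 change 3.96). Ccng2, a cyclin expressed in resting cells, had 3 counts at 12 h and 354 at 24 h, a ratio of 106 (95% counting interval 35.86 to 515), with a control mean of 74.3 normalised counts. A link between these regulators and the mitotic genes was not tested, as every gene called higher rises in the same 24 h libraries.

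**Figure D2:**
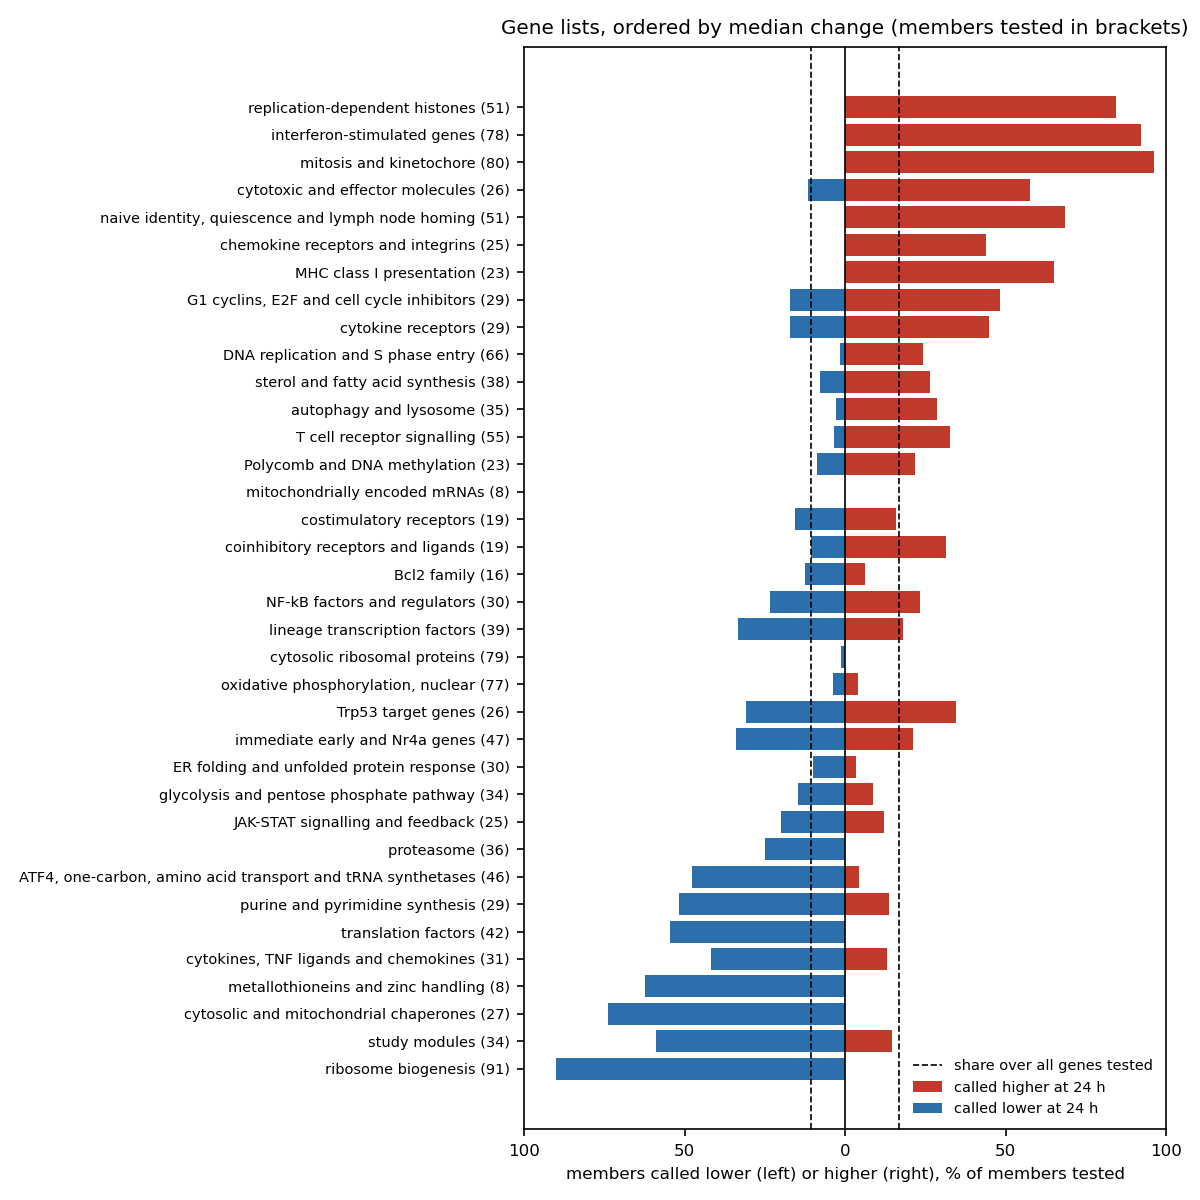
Bars give, for each of 36 gene lists, the percentage of members tested that were called lower (blue, left) or higher (red, right) at 24 h than at 12 h, with the number tested in brackets and lists ordered by median change; dashed lines mark 10.5% and 16.7%, the shares over all genes tested. Histones, interferon-stimulated and mitotic genes stand at the top and ribosome biogenesis, with 82 of 91 members lower, at the bottom.

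Interferon-stimulated genes, which cells switch on in response to interferons and whose products restrict viruses, were called higher in 72 of 78 members tested and lower in 0, with 6 not called and a median log2 change of 3.00. By comparison, 16.7% of all genes tested were called higher and 10.5% lower. Ifit3 was at 5.48, 2.20 and 1.94 normalised counts at 12 h and 239, 295 and 352 at 24 h (log2 change 5.80, SE 0.62, adjusted p = 6.92e-18), and its neighbour Ifit1 was at 24.7, 26.4 and 23.3 at 12 h and 232, 226 and 309 at 24 h (log2 change 3.15, SE 0.50, adjusted p = 2.27e-09). Ifit1bl1 was at 10.1, 0.734 and 2.92 at 12 h and 554, 447 and 375 at 24 h (log2 change 6.50), and Ifit3b rose from 3 counts in all to 343, a ratio of 102 (95% counting interval 34.7 to 499). Every 24 h value of these Ifit genes lay above every 12 h value, although reads may be split or lost between such similar copies. Stat2, a transcription factor of the type I interferon response, was at 51.2, 55.8 and 68.0 at 12 h and 314, 281 and 315 at 24 h (log2 change 2.35). Ifnar1, a subunit of the type I interferon receptor, was at 25.6, 38.9 and 43.7 at 12 h and 162, 208 and 188 at 24 h (log2 change 2.34). The list took 0.209 to 0.234% of counts at 12 h and 0.927 to 0.998% at 24 h. Its median level relative to control, as a log2 ratio, was -1.41 at 4 h, -1.63 at 12 h and 1.12 at 24 h, and 41 members were called higher at 24 h than in control, where 12.3% of all genes tested were.

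The interferon-stimulated response element (ISRE, searched on both strands) was found in 39 of 70 promoter windows of this list (55.7%, from 59 of 80 members matched), against 3.27% of windows of genes tested and 3.44% of all windows. Ifit3 (chr19:34583279-34583578, plus strand) held it at -156 and -122 from the start, and Ifit1 (chr19:34640639-34640938, plus strand) at -104 and -85. Both are shown as the neighbours with the values above, with the element in capitals.
Ifit3: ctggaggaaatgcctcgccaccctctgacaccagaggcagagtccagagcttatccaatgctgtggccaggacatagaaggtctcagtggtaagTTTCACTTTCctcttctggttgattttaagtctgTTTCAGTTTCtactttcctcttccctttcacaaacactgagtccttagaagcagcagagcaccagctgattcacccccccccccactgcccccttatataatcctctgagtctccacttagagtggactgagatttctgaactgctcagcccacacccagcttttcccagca
Ifit1: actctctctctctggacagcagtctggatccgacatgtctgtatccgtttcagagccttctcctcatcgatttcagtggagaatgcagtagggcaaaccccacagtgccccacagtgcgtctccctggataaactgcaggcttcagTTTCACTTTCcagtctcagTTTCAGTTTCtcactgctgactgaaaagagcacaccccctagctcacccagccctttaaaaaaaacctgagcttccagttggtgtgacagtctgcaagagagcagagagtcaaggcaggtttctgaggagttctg

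Genes of MHC class I presentation rose alongside: 15 of 23 were called higher and 0 lower, against 16.7% and 10.5% of all genes tested. The median log2 change was 1.11, and with library totals as scale 11 were called higher and 1 lower. Psmb9, a catalytic subunit of the immunoproteasome that overlaps Tap1 on the opposite strand, was at 151, 71.2 and 108 normalised counts at 12 h and 605, 670.4 and 648 at 24 h (log2 change 2.52, SE 0.23, adjusted p = 1.21e-27). Tapbp, tapasin, which loads peptide onto class I molecules, was at 252, 229.6 and 198 at 12 h and 1036, 1152 and 1023 at 24 h (log2 change 2.23), though a same-strand gene, Zbtb22, overlaps its exons. The classical class I gene H2-D1 was at 1914, 1320 and 1820 at 12 h and 4236, 3931 and 3997 at 24 h (log2 change 1.26), close to its control mean of 4087. H2-K1 was at 1715, 1425 and 1737 at 12 h and 5025, 4276 and 4627 at 24 h (log2 change 1.51), with a control mean of 5482. The groups were apart for these genes, but reads can be shared among H2 copies.

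Transcripts of the resting T cell returned towards their control level. Of 51 members of the list for naive identity, quiescence and lymph node homing, 35 were called higher and 0 lower, with 16 not called and a median log2 change of 1.81. Shares over all genes tested were 16.7% higher and 10.5% lower. S1pr1, the receptor for exit from lymphoid tissue (named after its values were seen), was at 27.4, 10.3 and 16.5 normalised counts at 12 h and 461, 444 and 454 at 24 h (log2 change 4.42, SE 0.43, adjusted p = 3.93e-23), with a control mean of 1328. Its groups did not overlap, and every 24 h value was still below every control value. Klf2, the transcription factor that drives S1pr1, was at 86.8, 61.6 and 114 at 12 h and 962, 999 and 923 at 24 h (log2 change 3.33). Il7r, the receptor chain for the survival cytokine IL-7, was at 95.9, 148 and 123 at 12 h and 924, 645 and 654 at 24 h (log2 change 2.54). Tcf7, which encodes TCF-1, was at 851, 556 and 877 at 12 h and 2688, 2614 and 2754 at 24 h (log2 change 1.81). These 3 genes, also named after their values were seen, were higher in every 24 h library. Ypel3, a growth suppressor, was at 3.65, 2.94 and 1.94 at 12 h and 306, 296 and 264 at 24 h (log2 change 6.28), and Tsc22d3, the glucocorticoid-induced leucine zipper gene, at 7.31, 5.14 and 7.78 at 12 h and 246, 167 and 166 at 24 h (log2 change 4.50). Mxd4, a Max partner that opposes Myc and is not in this list, was at 6.39, 1.47 and 3.89 at 12 h and 319, 414 and 377 at 24 h (log2 change 6.31), with a control mean of 578. Ccr7, a chemokine receptor for entry into lymph nodes, was not called, at 1128, 923 and 802 at 12 h and 879, 845 and 945 at 24 h (log2 change -0.10, SE 0.14, adjusted p = 0.626).

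Some genes of migration and effector function rose as well. Of the chemokine receptor and integrin list, 11 of 25 tested were called higher and 0 lower, and of the cytotoxic and effector list, 15 of 26 were called higher and 3 lower, against 16.7% and 10.5% of all genes tested. Vim, the intermediate filament vimentin (chr2:13573927-13582826), was at 119, 114 and 122 normalised counts at 12 h and 1992, 1989 and 1891 at 24 h (log2 change 4.04, SE 0.12, adjusted p = 2.5e-223), above its control mean of 608. Lgals1, galectin-1, was at 47.5, 47.0 and 31.1 at 12 h and 749.5, 661 and 651 at 24 h (log2 change 3.94), with a control mean of 152, and S100a6, a calcium binding protein, was at 6.39, 9.54 and 6.80 at 12 h and 301, 207 and 215 at 24 h (log2 change 4.79), with a control mean of 111. These 3 genes were thus higher at 24 h than at 12 h and than the control mean, with no overlap between 12 h and 24 h. Itgb3, an integrin β chain, was at 10.1, 18.3 and 13.6 at 12 h and 272, 245 and 276 at 24 h (log2 change 4.15), and S1pr4, another sphingosine phosphate receptor, at 17.4, 38.9 and 35.0 at 12 h and 504, 430.5 and 399 at 24 h (log2 change 3.82). Cxcr3, the receptor of interferon-induced chemokines, was at 41.1, 54.3 and 36.9 at 12 h and 147, 177 and 174 at 24 h (log2 change 1.86). The receptor chains for IL-18 rose together, Il18r1 from 12.8, 4.40 and 8.75 to 105, 113 and 131 and Il18rap from 4.57, 5.14 and 7.78 to 82.2, 121 and 64.1 normalised counts. Gzmb, granzyme B, was not called, at 88.6, 60.9 and 129 at 12 h and 71.2, 94.9 and 186 at 24 h (log2 change 0.33, SE 0.41, adjusted p = 0.551), with overlapping groups. Among markers of other cells, Klrd1 of the NK list and Itgam of the monocyte list were called higher (log2 changes 3.89 and 3.38), while Ncr1 and Klre1 were at or near 0. Itgam was the 1 member called of 12 monocyte and macrophage markers tested, whose median log2 change was 0.17. The markers not called ranged from -1.21 (Adgre1) to 1.00 (C1qb), and the part of such cells was not tested.

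Of 47 immediate early and Nr4a genes, which TCR signals induce, 16 were called lower, 10 higher and 21 not called, with a median log2 change of -0.25, against 10.5% lower and 16.7% higher over all genes tested. With library totals as scale 18 were called lower and 6 higher. The genes of the activation response described next fell, and they do not stand for the whole list. Irf4, Irf8 and Mir155hg are given beside the list and are not members of it. Nr4a3, whose regulation drives the Timer (chr4:48045153-48086447), was at 121, 151 and 190.5 normalised counts at 12 h and 4.38, 8.10 and 14.8 at 24 h, 13.6-fold lower by the shrunken fit (log2 change -3.76, SE 0.42, adjusted p = 4.53e-18), below its control mean of 26.1 and far below its 4 h mean of 3299. Its groups did not overlap, and the cells were sorted as Blue+ at 12 h and Blue- at 24 h, so this gene is a check of the gates and not a finding. Nr4a1, a paralog, was at 122, 41.8 and 145 at 12 h and 25.2, 37.5 and 45.6 at 24 h (log2 change -1.42, SE 0.39, adjusted p = 0.000922), with replicate 2 at 12 h within the 24 h range. Egr2, a zinc finger factor induced by NFAT, was at 74.0, 56.5 and 45.7 at 12 h and 1.10, 5.15 and 3.08 at 24 h (log2 change -3.84, SE 0.45, adjusted p = 5.04e-15), and every 24 h value was below the control mean of 16.3. Irf4, a factor induced in proportion to TCR signalling, was at 1230, 1176 and 862 at 12 h and 65.8, 82.4 and 88.7 at 24 h (log2 change -3.74, SE 0.17, adjusted p = 1.92e-106), still above its control mean of 12.6. Irf8, a relative, was at 2481, 2706 and 2133 at 12 h and 401, 339 and 372 at 24 h (log2 change -2.71). Myc, the growth regulator, was at 226, 208 and 147 at 12 h and 29.6, 29.4 and 46.2 at 24 h (log2 change -2.40), with a 4 h mean of 1188. Mir155hg, the host transcript of miR-155, was at 233, 249.5 and 298 at 12 h and 34.0, 19.9 and 19.1 at 24 h (log2 change -3.44). None of these genes other than Nr4a1 had overlapping groups. The immediate early and Nr4a genes called higher included Btg2, an antiproliferative gene, at 44.8, 28.6 and 50.5 at 12 h and 353, 390 and 344 at 24 h (log2 change 3.12), and the phosphatase gene Dusp10, at 19.2, 13.2 and 17.5 at 12 h and 39.5, 70.7 and 74.0 at 24 h (log2 change 1.84).

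Cytokine genes were called lower in 13 and higher in 4 of 31 tested, against 10.5% and 16.7% of all genes tested, with a median log2 change of -1.28. Il2, the T cell growth factor, was at 60.3, 97.6 and 67.1 normalised counts at 12 h and 6.58, 6.62 and 3.08 at 24 h (log2 change -3.60, SE 0.43, adjusted p = 5.09e-15), with a control mean of 5.92. Il21, a helper cytokine, was at 199, 249 and 165 at 12 h and 17.5, 15.4 and 30.8 at 24 h (log2 change -3.16, SE 0.37, adjusted p = 4.31e-16). The noncoding gene Gm12534, which overlaps Il21 on the opposite strand, was at 72.2, 109 and 76.8 at 12 h and 2.19, 3.68 and 0.616 at 24 h, and as the strand setting of the authors' counting is not stated these values cannot be assigned to one strand with certainty. Lif, a cytokine of the IL-6 family, was at 88.6, 40.4 and 74.8 at 12 h and 0, 1.47 and 4.93 at 24 h (log2 change -4.07), and Tnf was at 145, 186 and 182 at 12 h and 54.8, 32.4 and 44.4 at 24 h (log2 change -1.95). Il10, the gene of the GFP reporter, was at 35.6, 38.1 and 23.3 at 12 h and 0, 5.15 and 3.08 at 24 h (log2 change -3.01, SE 0.75, adjusted p = 0.000549). All of these cytokines had non-overlapping groups, with Il2 and Tnf at 24 h near their control levels. Ltb, lymphotoxin β, which resting T cells express, rose instead, at 30.1, 33.0 and 23.3 at 12 h and 380.2, 490.1 and 507 at 24 h (log2 change 3.91), with a control mean of 704. Tnfsf10, the ligand TRAIL, was at 4.57, 7.34 and 3.89 at 12 h and 60.3, 79.5 and 76.4 at 24 h (log2 change 3.54).

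Of 29 cytokine receptors tested, 13 were called higher and 5 lower, against 16.7% higher and 10.5% lower over all genes tested. Of 19 costimulatory receptors, 3 were called higher, 3 lower and 13 not called (3 and 5 called with library totals as scale). The costimulatory share called higher was near the 16.7% over all genes. Il2ra, the high-affinity IL-2 receptor chain CD25, fell from 1989, 2011 and 1904 to 324, 305 and 312 normalised counts (log2 change -2.61, SE 0.23, adjusted p = 6.97e-29), while Il2rb was not called, at 741, 859.9 and 924 at 12 h and 520.5, 600.5 and 656 at 24 h (log2 change -0.50, SE 0.15, adjusted p = 0.00315). Cish, an inhibitor of IL-2 receptor signalling induced by Stat5, was at 420.2, 404 and 522 at 12 h and 30.7, 31.6 and 25.3 at 24 h (log2 change -3.90), and Socs1 at 277, 156 and 380.1 at 12 h and 87.7, 55.9 and 87.5 at 24 h (log2 change -1.74). Both feedback genes had no overlap between the groups. Tnfrsf4 (OX40) was at 788, 1108 and 608 at 12 h and 83.3, 69.2 and 91.2 at 24 h (log2 change -3.31), and Tnfrsf9 (4-1BB) at 317, 389.6 and 205 at 12 h and 31.8, 28.0 and 53.0 at 24 h (log2 change -2.89). The costimulatory receptors Slamf6, at 100.5, 85.8 and 71.9 at 12 h and 712, 734 and 663 at 24 h (log2 change 3.00), and Cd27, at 258, 241 and 244 at 12 h and 587, 659 and 636 at 24 h (log2 change 1.34), moved the other way, to near their control means of 654 and 791. Among 19 coinhibitory receptors and ligands tested, 6 were called higher and 2 lower (6 and 4 with library totals as scale). The coinhibitory share called lower was near the 10.5% over all genes. Those higher included Cd96, at 39.3, 36.0 and 21.4 at 12 h and 169, 224 and 218 at 24 h (log2 change 2.62), and those lower were Cd200, at 324, 263 and 259.5 at 12 h and 71.2, 61.8 and 64.1 at 24 h (log2 change -2.07), and Pdcd1lg2 (PD-L2), at 65.8, 102 and 59.3 at 12 h and 20.8, 13.2 and 35.1 at 24 h (log2 change -1.64). Ctla4 was at 256, 195 and 262 at 12 h and 212, 172 and 230.5 at 24 h (log2 change -0.20, SE 0.45, adjusted p = 0.748), with overlapping groups, and Lag3 and Tigit were at most 12.8 and 12.6 normalised counts in any of the 6 libraries and were not called.

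Of 55 components of the TCR pathway tested, 18 were called higher, 2 lower and 35 not called, against 16.7% and 10.5% of all genes tested, with a median log2 change of 0.48 (14 higher and 4 lower with library totals as scale). Chains of CD3 were among those higher, with Cd3d at 484, 591 and 557 normalised counts at 12 h and 1307, 1421 and 1440 at 24 h (log2 change 1.35, SE 0.12, adjusted p = 3.33e-30), with a control mean of 1377, and Cd3g at 112, 65.3 and 72.9 at 12 h and 380.2, 333 and 351 at 24 h (log2 change 2.07). Dgka, a diacylglycerol kinase that dampens the signal and whose exons overlap Pmel on the opposite strand, was at 145, 156 and 127 at 12 h and 1617, 1574 and 1259 at 24 h (log2 change 3.36). Rasgrp2, an exchange factor for Rap1, was at 83.1, 70.4 and 71.0 at 12 h and 752, 900 and 871 at 24 h (log2 change 3.48), and Rasgrp1, the diacylglycerol sensor upstream of Ras, at 129, 124 and 146 at 12 h and 489, 550.5 and 493 at 24 h (log2 change 1.94). Groups did not overlap for any of them. Among lineage transcription factors, 7 of 39 tested were called higher and 13 lower, the share of higher calls being near the 16.7% over all genes tested. Gata3, the type 2 helper factor, was at 62.1, 62.4 and 71.9 at 12 h and 483, 466 and 452 at 24 h (log2 change 2.81, SE 0.17, adjusted p = 2.08e-63), though the same-strand gene 9230102O04Rik overlaps its exons. Ikzf2, which encodes Helios, was at 139.8, 119.6 and 104 at 12 h and 614, 524 and 614 at 24 h (log2 change 2.25). On the lower side were Tbx21 (T-bet), at 184, 218 and 161 at 12 h and 92.0, 44.9 and 78.3 at 24 h (log2 change -1.38), Eomes, at 43.9, 28.6 and 49.6 at 12 h and 7.67, 7.36 and 4.31 at 24 h (log2 change -2.51), and Rora, at 747, 1079 and 832 at 12 h and 104, 85.4 and 113 at 24 h (log2 change -2.92). No group overlapped for these 5 factors, and Tbx21 remained above its control mean of 8.24.

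Lists of the machinery of cell growth differed in how many members fell. Ribosome biogenesis had 82 of 91 members lower and 0 higher, against 10.5% and 16.7% of all genes tested, with a median log2 change of -1.79. Its share of a library's counts went from 3.53 to 3.59% at 12 h to 0.898 to 0.969% at 24 h. Nop58, a core protein of box C/D small nucleolar ribonucleoproteins, was at 3944, 4494 and 4207 normalised counts at 12 h and 937, 873 and 1052 at 24 h (log2 change -2.13, SE 0.13, adjusted p = 6.73e-58), with a control mean of 484. Polr1b, a subunit of RNA polymerase I, was at 153, 192 and 167 at 12 h and 17.5, 18.4 and 29.0 at 24 h (log2 change -2.90), and Rrp9, a U3 snoRNA binding protein, at 538, 622 and 541 at 12 h and 82.2, 74.3 and 102 at 24 h (log2 change -2.69). The groups of these genes did not overlap, and Polr1b and Rrp9 were near their control means of 30.8 and 93.8. By contrast, of 79 cytosolic ribosomal protein genes 0 were called higher and 1 lower, with a median log2 change of -0.04, and Rpl4 was at 6778, 7252 and 7002 at 12 h and 6758, 6464 and 6117 at 24 h (log2 change -0.12, SE 0.07, adjusted p = 0.152). The E-box CACGTG, to which Myc and its relatives bind, was found in 16 of 88 promoter windows of the ribosome biogenesis list (18.2%, from 77 of 91 members matched), against 10.2% of windows of genes tested, 16.6% of those of genes called lower and 8.21% of those of genes called higher.

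Of 42 translation factors, 23 were called lower and 0 higher (median log2 change -1.09), against 10.5% and 16.7% of all genes tested. The same shares over all genes stand beside the lists that follow. Eif4e, the cap binding protein, was among those lower, at 593, 620 and 649 normalised counts at 12 h and 157, 158 and 197 at 24 h (log2 change -1.85). Of 27 cytosolic and mitochondrial chaperones, 20 were lower and 0 higher (median -1.45), among them Hspd1 (HSP60), at 3592, 3871 and 4702 at 12 h and 1142, 774 and 1015 at 24 h (log2 change -2.03), which remained above its control mean of 183. The 24 h values of both genes lay below all 12 h values. Nucleotide synthesis had 15 of 29 members lower and 4 higher, the higher share being below the 16.7% over all genes tested. Cad, which starts pyrimidine synthesis, was at 605, 772 and 662 at 12 h and 149, 142 and 189 at 24 h (log2 change -2.07). Tyms, thymidylate synthase of the S phase, was among those higher, at 119, 131 and 141 at 12 h and 465, 490.1 and 511 at 24 h (log2 change 1.89), with Dck, deoxycytidine kinase, at 65.8, 30.8 and 82.6 at 12 h and 351, 329.7 and 358 at 24 h (log2 change 2.499). The list of ATF4 targets, one-carbon enzymes, amino acid transporters and tRNA synthetases had 22 of 46 lower and 2 higher, with Shmt1, a serine hydroxymethyltransferase, at 484, 506 and 440.3 at 12 h and 95.3, 89.8 and 104 at 24 h (log2 change -2.30), and Atf4 at 1008, 1452 and 1124 at 12 h and 378, 448 and 409.8 at 24 h (log2 change -1.53). Hk2, the inducible hexokinase, was at 698, 776 and 563 at 12 h and 103, 35.3 and 71.5 at 24 h (log2 change -3.22). Of 34 glycolysis and pentose phosphate genes, 5 were called lower and 3 higher (7 and 2 with library totals as scale), against 10.5% and 16.7% of all genes tested. Of 77 nuclear genes of oxidative phosphorylation, 3 were called in each direction (6 lower and 2 higher with library totals as scale), and 47 were called higher at 24 h than in control, where 12.3% of all genes tested were. Proteasome genes were called lower in 9 and higher in 0 of 36 (15 lower with library totals as scale), with 23 called higher than control at 24 h. Of 38 genes of sterol and fatty acid synthesis, 10 were called higher and 3 lower, the lower share being below the 10.5% over all genes tested. Scd2, a fatty acid desaturase, was at 77.7, 82.2 and 72.9 at 12 h and 427, 340 and 425 at 24 h (log2 change 2.34) and Fasn, fatty acid synthase, at 672, 859.9 and 667 at 12 h and 234, 198 and 221 at 24 h (log2 change -1.75).

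**Figure D3:**
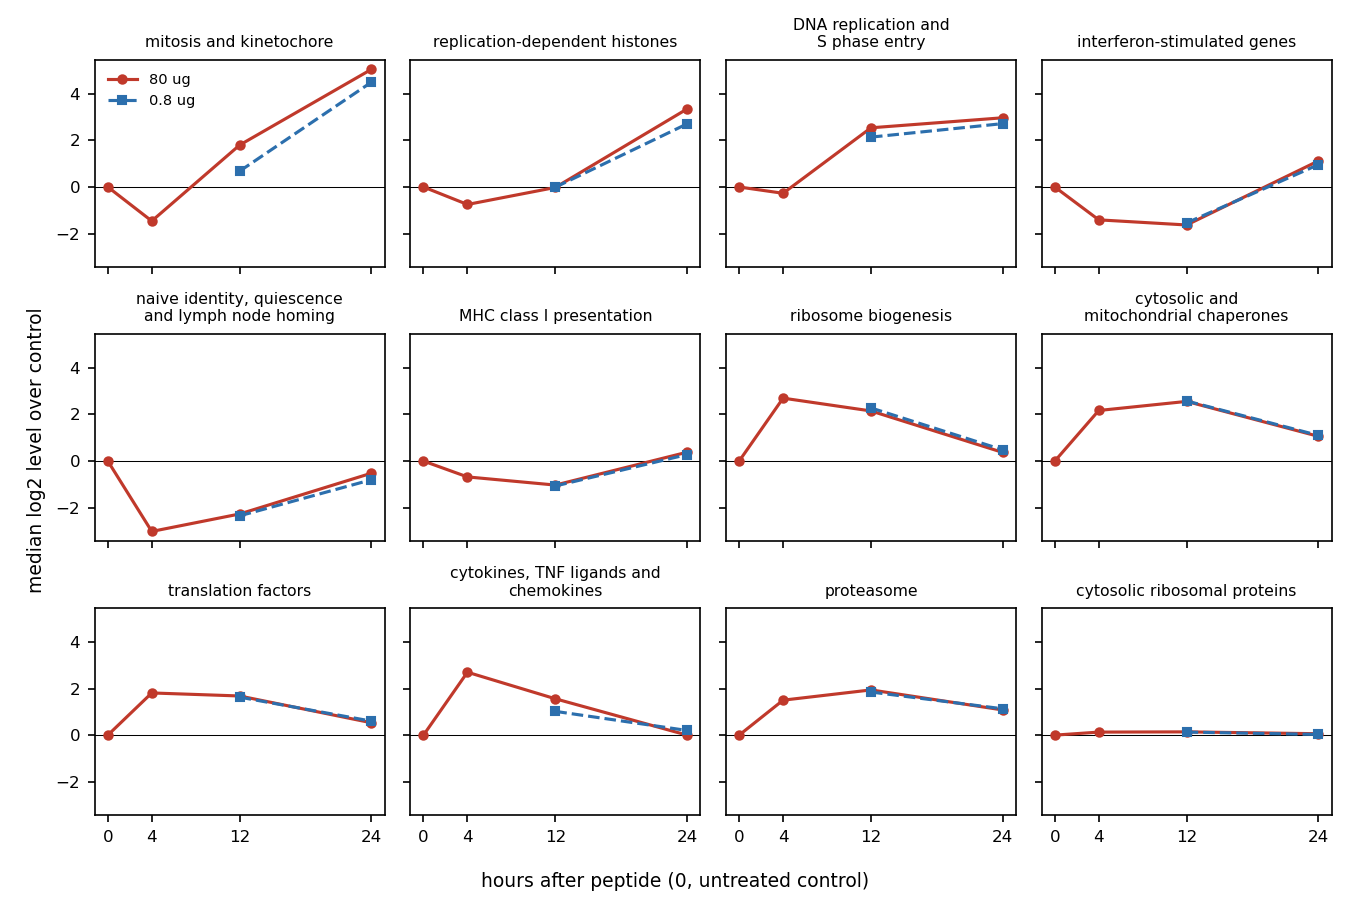
Each panel shows the median over a list's members of the log2 ratio of group mean to control mean (1 normalised count added to each), at 0 h (control), 4 h, 12 h and 24 h after 80 μg (red circles) and at 12 h and 24 h after 0.8 μg (blue squares). Mitotic genes go from 1.80 at 12 h to 5.05 at 24 h and interferon-stimulated genes from -1.63 to 1.12, while ribosome biogenesis falls from 2.15 to 0.37.

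Set beside control, the 24 h libraries had 1593 genes (12.3%) called higher and 1022 (7.91%) lower of 12925 tested. The log2 levels over control, which share the 24 h and 12 h libraries with the main comparison and are given as values only, fell into several kinds. Naive and quiescence genes moved from -2.27 at 12 h to -0.52 at 24 h. Of 51 members tested, 1 was above and 12 were below control at 24 h by the test. Ribosome biogenesis moved from 2.15 to 0.37 and chaperones from 2.56 to 1.06. At 24 h, 11 of 91 and 15 of 27 members were called higher than control. The share for ribosome biogenesis was near the 12.3% over all genes tested, and that for chaperones above it. DNA replication was at 2.54 and 2.97, mitosis at 1.80 and 5.05, and histones at -0.02 and 3.35. The plot by library shows 12 genes of these kinds.

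**Figure D4:**
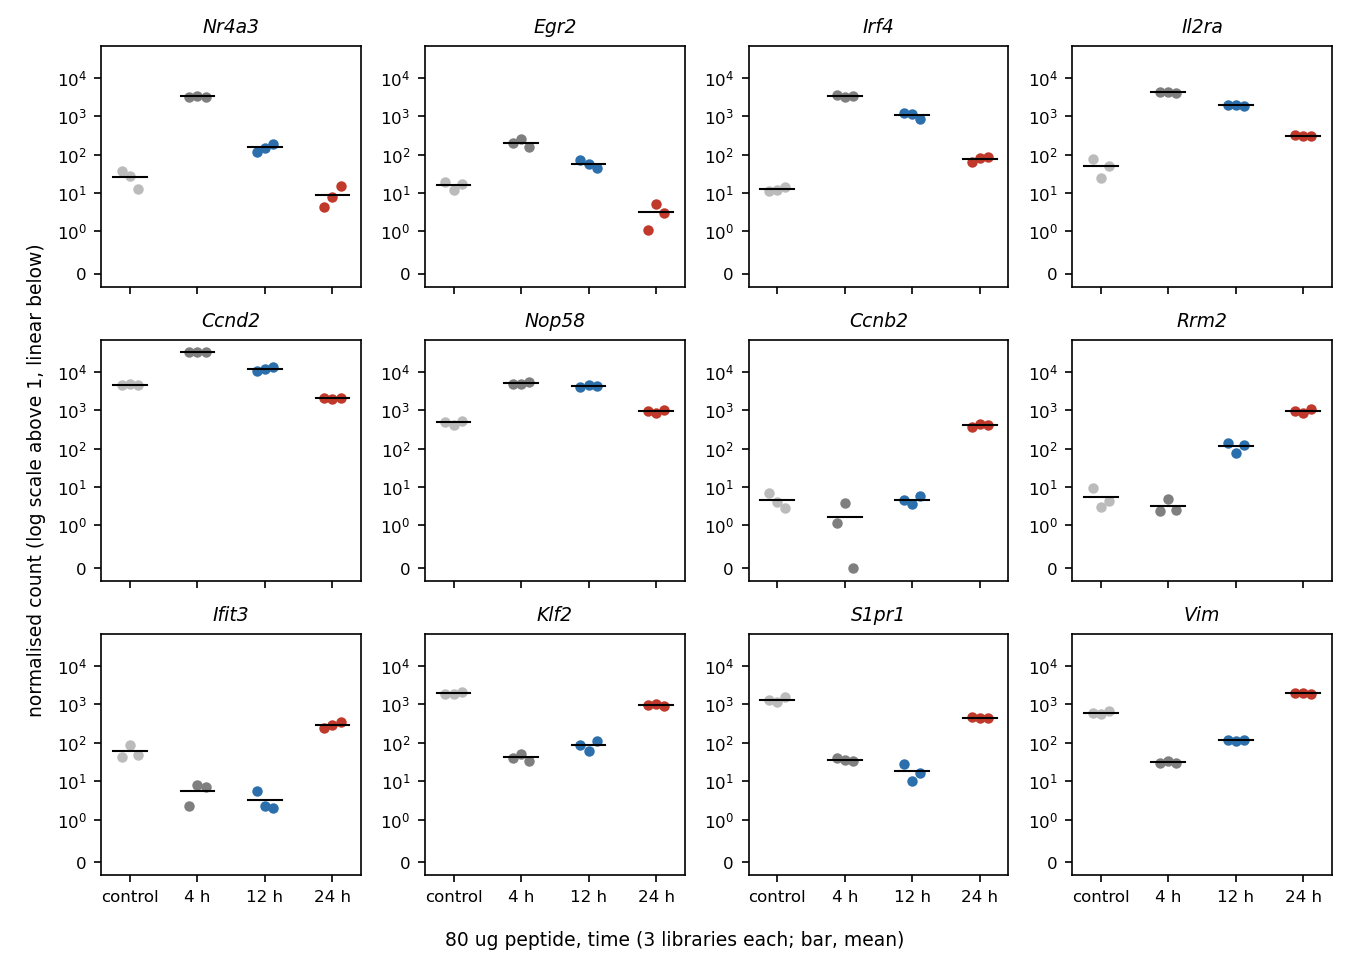
Normalised counts (log scale above 1, linear below) of 12 genes in each control, 4 h, 12 h and 24 h library of the 80 μg series; points are the 3 libraries of a group and bars their mean. Nr4a3, Egr2, Irf4, Il2ra, Ccnd2 and Nop58 are lower at 24 h than at 12 h and Ccnb2, Rrm2, Ifit3, Klf2, S1pr1 and Vim higher, with no overlap between the 12 h and 24 h points in any panel.

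Among genes with the greatest changes outside the lists, some of those named by rank are given. Crabp2, a cytosolic binding protein of retinoic acid, was at 194, 189 and 232 normalised counts at 12 h and 0 in every 24 h library, at least 83.7-fold lower, with a control mean of 0.682. Slc29a2, a nucleoside transporter, was at 42.9, 69.0 and 31.1 at 12 h and 1.10, 2.21 and 1.85 at 24 h (log2 change -4.25), and Smyd5, a SET and MYND domain protein, at 268, 301 and 249 at 12 h and 31.8, 16.9 and 17.9 at 24 h (log2 change -3.64). Cd7, a T cell surface glycoprotein, was at 0 in every 12 h library and at 44.9, 56.7 and 59.8 at 24 h, at least 20.5-fold higher, with a control mean of 54.0. Lockd, a noncoding transcript next to Cdkn1b, was at 4.57, 5.14 and 0 at 12 h and 378, 459.9 and 484 at 24 h (log2 change 6.76), and H2afv, a histone variant of the H2A.Z kind, at 25.6, 13.2 and 12.6 at 12 h and 1079, 1160 and 989 at 24 h (log2 change 5.92). Cdkn3, a phosphatase that acts on cyclin dependent kinases, had 2 counts in all at 12 h and 260 at 24 h, a ratio of 116 (95% counting interval 31.9 to 966). Each of these genes separated the groups with no overlap. Of 34 genes that the study grouped into modules, 20 were called lower and 5 higher, against 10.5% and 16.7% of all genes tested. However, these module genes were chosen in the study on these samples and are not independent evidence of a direction.

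The same interval after 0.8 μg, sorted by the same gates in other mice, gave 2209 genes (17.1%) higher and 1225 (9.48%) lower of 12925 tested. Of the 2210 genes tested at both doses and called higher after 80 μg, 1652 were also called higher after 0.8 μg, which is 74.75% of the 80 μg genes and 74.78% of the 0.8 μg genes. Of 1387 called lower, 911 were shared (65.68% and 74.37%), and 1 gene was called in opposite directions. Across these genes, which are not independent replicates, the changes at the doses had a Pearson r of 0.836. The difference between the changes was tested directly: of 9663 genes, 141 (1.46%) were more positive after 80 μg and 114 (1.18%) more negative, and 150 of these 255 were also called in the 80 μg comparison. Of 78 members of the mitosis list tested for this difference, 11 differed, all more negative after 80 μg. The count of differing genes was 168 without the 0.8 μg 12 h replicate 1 library and 400 without the 0.8 μg 12 h replicate 3 library, which stood apart from its group (a chi-square per degree of freedom of 13.7 against each of the others, which were at 3.29 to each other).

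Egr2 differed most among the activation genes, at 17.6, 24.1 and 11.7 at 12 h and 21.4, 6.53 and 20.6 at 24 h after 0.8 μg, so that its change was -0.17 there and -3.84 after 80 μg (difference -3.97, SE 0.65, DESeq2 adjusted p = 7.29e-07). Irf4 was at 494, 626 and 492 at 12 h and 127, 129 and 126 at 24 h after 0.8 μg (difference -1.69, adjusted p = 1.3e-09). Mir155hg had a difference of -1.94 (adjusted p = 4.05e-10). All 3 were more negative after 80 μg, from 12 h levels above those of every 0.8 μg library at 12 h and 24 h. Cdk6 differed by -0.92 (adjusted p = 2.36e-05), and Icos, a costimulatory receptor called at neither dose, changed by -0.67 after 80 μg and 0.40 after 0.8 μg (difference -1.08, adjusted p = 0.00326). Gata3 was at 303, 307 and 393 at 12 h and 262, 342 and 320 at 24 h after 0.8 μg, against 62.1, 62.4 and 71.9 and 483, 466 and 452 after 80 μg (difference 2.95, SE 0.22, adjusted p = 1.4e-36). Gata3 thus was higher in every 12 h library of the low dose than in any 12 h library of the high dose. Ccna2, cyclin A2, which overlaps Exosc9 on the opposite strand, rose by 3.88 after 80 μg and 6.12 after 0.8 μg (difference -2.52, adjusted p = 0.00404). Rrm2 had a difference of -1.30 (adjusted p = 0.00607) and Cxcr3 of -2.32 (adjusted p = 0.00833). The differences of Ccna2, Rrm2 and Cxcr3 were not called by limma on the deposited log2 values (adjusted p = 0.114, 0.0897 and 0.114). Gzmb was at 43.1, 61.7 and 27.0 at 12 h and 9.73, 11.2 and 4.13 at 24 h after 0.8 μg, a change of -2.23 against 0.33 after 80 μg (difference 2.75, adjusted p = 0.00537), a call that was lost without any of 3 libraries (80 μg 12 h replicate 1, 0.8 μg 12 h replicate 1 or 0.8 μg 24 h replicate 1), with a replicate block and under a stricter count filter, and that could not be tested in 3 more alternatives. The change of Tcf7 was more positive after 80 μg, by 0.88 (adjusted p = 0.000153). Egr2, Irf4, Mir155hg, Cdk6, Icos, Gata3 and Tcf7 kept these calls under all 22 alternatives, other than 1 in which Egr2 was not tested. For most members of the lists above a difference between doses was not called, which does not show that the changes were alike.

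**Figure D5:**
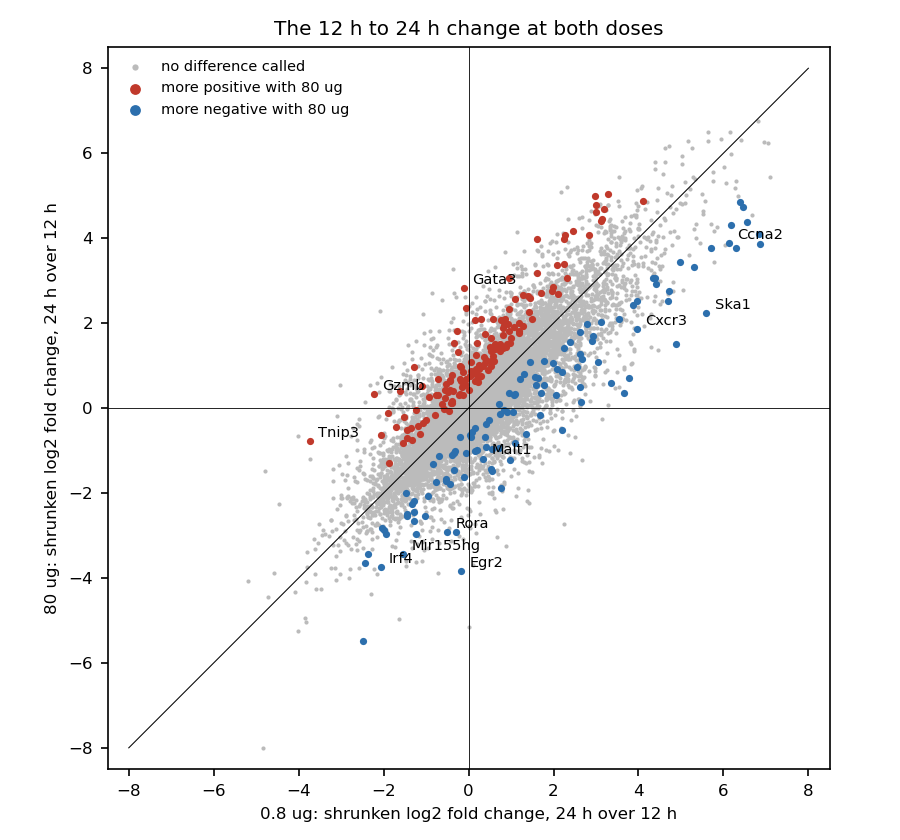
Each point is a gene tested at both doses, with its shrunken log2 fold change, 24 h over 12 h, after 0.8 μg on the horizontal axis and after 80 μg on the vertical axis; the line marks equal changes. Of 9663 genes with a test of the difference, 141 in red changed more positively after 80 μg (Gata3 among them) and 114 in blue more negatively (Egr2 and Ccna2 among them).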

How the data were processed

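RNA of sorted CD4+ T cells was measured in 21 libraries, 7 groups of 3 mice, by QuantSeq 3′ mRNA Forward sequencing over 4 lanes. The deposited counts were made by the authors, who trimmed and aligned reads to the mouse mm10 build (GRCm38) with STAR 2.5.2a and counted them per Ensembl gene with HTSeq. The annotation release, strand setting and handling of molecular identifiers are not given in the sources used here. The deposited log2 values are the authors' regularised log transform by DESeq2. No library or column was left unused.

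The counts were analysed with DESeq2 1.42.0 (R 4.3.3). The filter, shrinkage and thresholds follow the study's methods, and the model was chosen here: 1 fit over all 21 libraries with a coefficient per group, genes with at least 10 counts overall (15300 of 47643), Wald tests, Benjamini-Hochberg adjustment and normal-prior shrinkage, called at adjusted p under 0.05 and a log2 fold change above 1. Genes for which DESeq2 gave no adjusted p were counted as not tested. The difference between doses was the contrast of the 2 time changes, unshrunken, with no fold threshold. Each Wald test set a difference between groups against an estimate, for each gene, of the spread between mice within groups. That estimate was shared by all 7 groups. Folds are from shrunken log2 changes, except that folds given as at least a value set a group mean against a floor of 3 counts per library. Ratios, for genes with few counts in a group, are of counts scaled by size factors, with exact 95% intervals for counting error only. Alternatives were edgeR 4.0.16, limma 3.58.1 on the log2 values, other scalings and filters, thinning, a replicate block and leaving out each library. The code was tested on simulated data. Symbols matched 47224 gene IDs. Coordinates are from GENCODE vM21, and promoters from RefSeq, GRCm38.p6, matched by symbol.

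The 36 gene lists and 11 marker lists, and the genes followed, were chosen with earlier results of these data known. Genes named were the 15 that changed most each way, out of genes that were called, averaged 20 or more normalised counts and had non-overlapping groups, up to 3 called members each way and the first 2 of each list, the reporter genes and the study's modules, and up to 6 each way for the difference between doses; 6 others (Il7r, Tcf7, Klf2, S1pr1, Mki67 and Ighm) were chosen after their values were seen. Some genes that the rule names are not reported here. Of 243 genes named by rule, 79 share exon sequence with another gene, 59 of them on the opposite strand only, where reads may be counted to either gene if strand was not used.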

Additional observations from a re-analysis of the deposited data

Results flagged for a closer look

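The change from 12 h to 24 h differed between the 80 μg and 0.8 μg doses by a test of the difference itself for 255 genes (DESeq2 adjusted p under 0.05). Values below are the 80 μg change minus the 0.8 μg change on the log2 scale.

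More negative after 80 μg were the activation genes Egr2 (-3.97), Irf4 (-1.69), Mir155hg (-1.94), Rora (-2.58), Malt1 (-1.54), Pdcd1 (-1.35) and Icos (-1.08), the cell cycle genes Ccna2 (-2.52), Rrm2 (-1.30), Cdk6 (-0.92), Neil3 (-4.77), Aunip (-4.33), Ska1 (-3.74) and Esco2 (-3.27), and Cxcr3 (-2.32), Pdzk1ip1 (-5.44), Smyd5 (-1.22) and 3110082I17Rik (-1.09). More positive after 80 μg were Gata3 (2.95), Gzmb (2.74), Tnip3 (3.37), Tcf7 (0.88), Rasgrp1 (0.67), H2-K1 (0.61), Rapgef4 (2.28), and the noncoding genes Gm12216 (2.76) and Gm13546 (2.495). Pdzk1ip1 had no counts at 24 h after 80 μg, so its value depends on the fit and is no bound. Over the alternatives that tested them, the differences ranged from -5.34 to -0.73 for Neil3 (called in 14 of 18), -4.40 to -1.67 for Aunip (12 of 13), -4.18 to -2.27 for Ska1 (18 of 18), -3.51 to -1.21 for Esco2 (15 of 19), -5.75 to -1.05 for Pdzk1ip1 (15 of 17) and 1.53 to 4.23 for Gm12216 (12 of 18).

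Of these 27 genes, 11 kept the call under every alternative that tested them: Egr2, Irf4, Mir155hg, Malt1, Icos, Cdk6, Ska1, Smyd5, Gata3, Tcf7 and Gm13546. The other 16 lost it under at least 1, among them Rasgrp1 (called in 8 of 22 alternatives), H2-K1 (10 of 22) and Rapgef4 (7 of 21). The differences were not tested in libraries other than these.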

How the results depend on the processing

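Directions held widely: 189 of 211 named genes that were called kept their call and sign under all 18 alternatives run for the 80 μg comparison, and 0 of 249 named genes reversed. Without the fold threshold, genes lower at 24 h numbered 2618 after 80 μg and 2467 after 0.8 μg (1388 and 1225 with it). DESeq2 with library totals gave 1844 higher and 1857 lower, with TMM 2028 and 1598, the 6 libraries alone 2000 and 1526, edgeR 2320 and 1500, and limma on the deposited log2 values 1919 and 1146. Leaving out each 80 μg library gave 2020 to 2141 higher and 1278 to 1372 lower, each 0.8 μg library 1975 to 2184 higher and 1112 to 1218 lower in the 0.8 μg comparison. The number of genes that differed between doses (255) was 156 with limma and 168 to 400 without each library in turn. Causes of these moves were not tested. Same-numbered libraries had correlations of -0.045, 0.024 and -0.147 after 80 μg and 0.135, -0.102 and 0.038 after 0.8 μg, where replicate 1 correlated best with its own number, so that the numbers were not taken to pair the libraries, and a fit with the replicate block gave 2185 higher, 1371 lower and 212 differing between doses. Of 1296 list counts under alternatives, 115 moved by over 1.5 times. Genes with few counts, such as Lag3 and Tigit, are limited by depth, and 3 libraries a group limit every p.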

Other observations

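Further lists were followed in the same libraries. Of 26 target genes of p53 tested, 9 were called higher and 8 lower, against 16.7% and 10.5% of all genes tested. Trp53inp1, a p53-inducible nuclear protein, was at 51.2, 19.1 and 18.5 normalised counts at 12 h and 653, 651 and 675 at 24 h (log2 change 4.32, SE 0.38, adjusted p = 5.89e-29), with a control mean of 522. Sesn1, a stress-inducible inhibitor of mTORC1 signalling, was at 16.4, 5.87 and 13.6 at 12 h and 153, 159 and 157 at 24 h (log2 change 3.63), while Cdkn1a, the cell cycle inhibitor p21, was at 137, 71.9 and 29.2 at 12 h and 15.3, 15.4 and 17.9 at 24 h (log2 change -2.17). Sesn1 had a control mean of 272. Of the Bcl2 family, 1 of 16 tested was called higher and 2 lower, against 16.7% and 10.5% of all genes tested. These were Bcl2l1 (Bcl-xL), at 179, 311 and 195 at 12 h and 36.2, 53.0 and 43.8 at 24 h (log2 change -2.33), Bax, at 103, 146 and 105 at 12 h and 35.1, 42.0 and 35.7 at 24 h (log2 change -1.62), and the higher Bbc3 (Puma), at 26.5, 8.80 and 2.92 at 12 h and 71.2, 61.1 and 51.8 at 24 h (log2 change 1.99). Bcl2 itself was not called, at 420.2, 332 and 414 at 12 h and 431, 572 and 456 at 24 h (log2 change 0.32, SE 0.19, adjusted p = 0.157), and stood below its control mean of 1384.

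Lysosome and autophagy genes were called higher in 10 and lower in 1 of 35 tested, against 16.7% and 10.5% of all genes tested. Laptm5, a lysosomal membrane protein of lymphocytes, was at 662, 660.3 and 642 at 12 h and 2542, 2314 and 2155 at 24 h (log2 change 1.83), close to its control mean of 2210. Among genes of DNA and histone methylation, Uhrf1, which recruits Dnmt1 to newly copied DNA, was at 284, 328 and 403 at 12 h and 889.8, 710.2 and 858 at 24 h (log2 change 1.27), and Kdm6b, an H3K27 demethylase, was at 222, 229.6 and 234 at 12 h and 57.0, 54.5 and 56.7 at 24 h (log2 change -2.01). Abcg1, a sterol exporter, was at 7.31, 2.20 and 5.83 at 12 h and 101, 103 and 132 at 24 h (log2 change 4.26). Of 5 regulatory T cell markers tested, 2 were called higher, 1 lower and 2 not called, with a median log2 change of 0.39. Foxp3 was at 5.05 to 8.68 CPM at 12 h and 20.2 to 25.5 CPM at 24 h (log2 change 1.89, called higher) and Ikzf2 was higher, while Il2ra fell. Ctla4 (-0.20) and Ikzf4 (0.39) were not called.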
